A study of Mus musculus with 8 samples.

Results

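The ER chaperone genes of the unfolded protein response (UPR) were followed in livers of mice with steatohepatitis, with and without Smoothened (Smo) in hepatocytes. The set was given by name and was chosen with earlier results of these data known. It holds 10 of the 25239 gene symbols counted: Hspa5, Hsp90b1, Calr, Pdia4, Dnajb9, Sdf2l1, Creld2, Manf, Herpud1 and Xbp1. All 10 were found in every liver, and all 10 were among the 12977 genes with enough reads to be tested. Total RNA of whole liver was sequenced from 8 adult male Smo tm2Amc/J mice on the C57Bl6/J background, in which Smo is floxed on both alleles (Smo fl/fl). All 8 mice ate CDA-HFD, a diet without choline, with L-amino acids in place of protein and with 60 kcal% fat, for 6 weeks, and all received an adeno-associated virus of serotype 8 by tail vein 1 week before sacrifice. In the 4 control mice the virus carried luciferase, and in the 4 Smo-KO mice its cargo was Cre recombinase, the enzyme that cuts out floxed DNA. Both were driven by TBG, a promoter of hepatocytes, so other liver cells keep Smo, and the presence of Cre and the loss of Smo cannot be told apart in this design. Livers of mice on another diet or without a vector were not analysed here, and every comparison below is between groups with diet-induced injury.

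Proteins that are secreted or built into membranes fold in the endoplasmic reticulum (ER), where chaperones hold unfolded chains and disulfide isomerases set their disulfide bonds. When unfolded protein accumulates, the ER membrane sensors IRE1, ATF6 and PERK start the UPR: IRE1 splices Xbp1 mRNA into the form that encodes an active transcription factor, ATF6 is cleaved to release another, and PERK slows translation while the transcription factor ATF4 is made. Hepatocytes secrete most plasma proteins and carry a large ER, and steatohepatitis is known for UPR activity.

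The transcription factors of the UPR bind short DNA motifs, and these motifs were looked for in the RefSeq promoter windows (GRCm38.p6), 250 bases before to 50 bases after each annotated start site, on both strands. Windows were given for 9 of the 10 genes, all but Manf. The ER stress response element (ERSE, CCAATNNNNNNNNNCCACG), which takes NF-Y at CCAAT and ATF6 or XBP1 at CCACG, was present in 4 of the 9 windows and in 39 of all 32851 windows (0.119%). ERSE-II (ATTGGNCCACG) shares CCACG with ERSE and holds CCAAT in reverse; it was found in 1 of the 9 windows, that of Herpud1, and in 12 of all windows (0.0365%). The UPR element core (TGACGTG), bound by XBP1 and able to overlap the reverse complement of CCACG, was found in the Hspa5 window and in 661 of all windows (2.01%). The C/EBP-ATF response element core (CARE, TTGCATCA), bound by ATF4 with a C/EBP partner, was found in the Herpud1 window and in 294 of all windows (0.895%). The 5 stretches that hold these matches are shown 5′ to 3′ in the direction of the gene, with 20 bases on each side and the motifs in capitals. They are shown because they match motifs that UPR factors can bind. All lie upstream of the RefSeq start site; for Hspa5 the GENCODE gene begins inside the stretch shown. In Hspa5 (chr2:34771913-34772063, plus strand) the capitals mark the UPR element core and then ERSE. Hsp90b1 (chr10:86705513-86705676, minus strand) has ERSE once on each strand. Herpud1 (chr8:94386297-94386407, plus strand) has the CARE core and then ERSE-II. Calr (chr8:84847055-84847113, minus strand) and Creld2 (chr15:88819500-88819558, plus strand) each have ERSE on the strand opposite to the gene, so the capitals read CGTGG first.
Hspa5: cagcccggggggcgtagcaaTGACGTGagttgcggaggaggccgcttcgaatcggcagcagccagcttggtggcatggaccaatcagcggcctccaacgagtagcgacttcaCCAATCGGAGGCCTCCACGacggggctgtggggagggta
Hsp90b1: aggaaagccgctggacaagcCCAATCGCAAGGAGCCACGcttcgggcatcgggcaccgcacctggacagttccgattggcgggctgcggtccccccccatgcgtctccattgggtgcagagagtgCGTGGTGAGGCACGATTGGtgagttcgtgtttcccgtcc
Herpud1: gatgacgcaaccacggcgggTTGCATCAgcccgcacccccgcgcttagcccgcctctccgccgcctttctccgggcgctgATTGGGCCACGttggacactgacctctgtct
Calr: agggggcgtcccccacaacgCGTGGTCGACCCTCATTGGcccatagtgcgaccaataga
Creld2: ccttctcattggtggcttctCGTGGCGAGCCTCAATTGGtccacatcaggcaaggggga

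In the windows of Dnajb9, Xbp1, Sdf2l1 and Pdia4 none of the 4 motifs occurred in exactly these letters, which says nothing of motifs farther away or with other letters. The match nearest to a start site was that of Herpud1, where ERSE-II began 52 bases upstream, and the Hspa5 ERSE began 65 bases upstream. The other ERSE matches began 107 and 212 bases (Hsp90b1), 126 bases (Creld2) and 162 bases (Calr) upstream. A match is a description of the sequence and no evidence that a factor bound there in these livers.

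**Figure D1:**
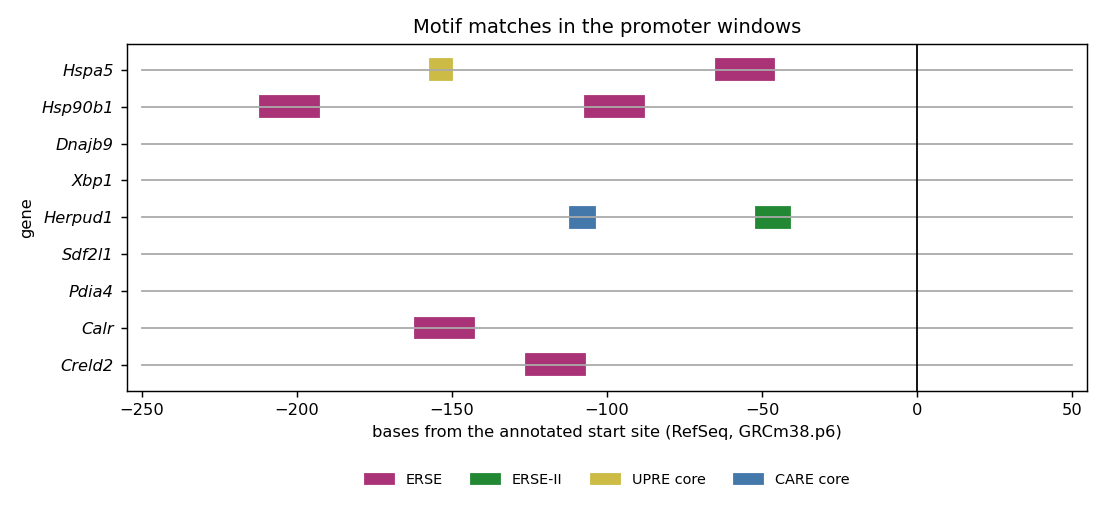
Motif matches in the promoter windows of the 9 ER chaperone genes for which a window was given. The horizontal axis is the distance in bases from the RefSeq start site, each row is a gene, and coloured boxes are matches to ERSE, ERSE-II, the UPR element core (UPRE core) or the CARE core. ERSE boxes are present for Hspa5, Hsp90b1 (2 boxes), Calr and Creld2.

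Reads counted on genes ranged from 9177277 to 9999732 in control livers and from 8203299 to 9543675 in Smo-KO livers. Levels are given as CPM, a gene's reads relative to the TMM-scaled size of its library. The target of Cre, Smo, was lower in all 4 Smo-KO livers than in any control: it stood at 8.16, 8.48, 8.73 and 8.20 CPM in control livers 1 to 4 and at 5.66, 3.92, 4.26 and 4.37 CPM in Smo-KO livers 1 to 4. The Smo-KO mean was 54.3% of the control mean (exact permutation test of 4 livers against 4, two-sided p = 0.0286, the smallest that this design allows). Its log2 fold change in the quasi-likelihood test of edgeR was -0.88 (SE 0.16, adjusted p = 0.0957). The tissue label was also checked. All 8 hepatocyte markers examined were expressed in every liver, led by albumin, and their summed level was 30067 ± 2726 CPM in the control group and 29436 ± 884 CPM in the Smo-KO group (SD, n = 4 each).

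The ER chaperones together took 0.460% ± 0.0393 of the reads on genes in the control group and 0.366% ± 0.0384 in the Smo-KO group (SD, n = 4 each). Compared per kilobase of the longest GENCODE M21 transcript, the most abundant in control livers was Calr, the soluble lectin chaperone of the ER, at 506 ± 50.8 CPM per kb. Hspa5, which encodes BiP, the ER member of the HSP70 family and the chaperone that keeps the UPR sensors inactive, followed at 306 ± 49.9 CPM per kb, and Hsp90b1, the ER member of the HSP90 family, at 258 ± 41.2 CPM per kb. Calr lay above Hspa5 in all 4 control livers without overlap, while the ranges of Hspa5 and Hsp90b1 overlapped. Herpud1 (183 ± 65.9 CPM per kb), Xbp1 (161 ± 18.9 CPM per kb), Pdia4 (127 ± 12.7 CPM per kb) and Manf (119 ± 15.5 CPM per kb) came next, and of these neighbours only Xbp1 and Pdia4 were separated. Sdf2l1 (68.0 ± 9.34 CPM per kb), Dnajb9 (53.9 ± 10.05 CPM per kb) and Creld2 (40.8 ± 6.46 CPM per kb) were the least abundant. Manf and Sdf2l1 were separated, while each of the last genes overlapped its neighbour within this group. The order of levels depends on the transcript length used: with the median transcript length Hspa5 stood first and Manf the fourth.

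Of the 10 genes, 9 had a lower mean in Smo-KO livers than in control livers, and Xbp1 had a higher one. None passed the adjusted threshold of 0.05 in edgeR's test, in which 0 of all 12977 genes (0%) did. At an unadjusted p under 0.05, 7 of the 10 were lower (Hspa5, Sdf2l1, Manf, Dnajb9, Pdia4, Calr and Creld2) and 0 were higher, against 7.15% lower and 6.70% higher over all genes tested. The median log2 fold change was -0.34 for the 10 genes and -0.000842 for all genes tested. For 1 of the 10, Hspa5, all Smo-KO livers lay below all control livers, as they did for 4.34% of all genes tested. DESeq2's Wald test, run as an alternative, called 163 genes at an adjusted p under 0.05, with 0.647% of all genes tested called lower, and 1 of the 10, again Hspa5, was among them. Because whole liver was sequenced, fewer cells that express a gene and less RNA of it per cell cannot be told apart.

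Hspa5 (chr2:34771970-34777547, plus strand) showed the clearest separation of the groups. It was counted at 1009.6, 1202, 1343 and 940.1 CPM in control livers 1 to 4 and at 795, 848, 612 and 852 CPM in Smo-KO livers 1 to 4. The highest Smo-KO value lay below the lowest control value, with the largest gap to the controls in Smo-KO liver 3. The mean was 1124 ± 183 CPM in controls and 777 ± 113 CPM with Smo-KO (SD, n = 4 each; 69.1% of control; exact permutation test, two-sided p = 0.0286). Its log2 fold change was -0.53 (SE 0.13; adjusted p = 0.151 in edgeR's test and 0.0216 in DESeq2's). Over all alternatives in processing and with each liver left out in turn, the log2 fold change of Hspa5 stayed between -0.60 and -0.43.

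The other large chaperones were less separated. Hsp90b1 (chr10:86690209-86705509, minus strand), whose product acts after BiP on a narrower set of clients, was counted at 723, 858, 1006 and 732 CPM in control livers and at 614, 745, 651 and 787 CPM in Smo-KO livers. The groups overlapped, 2 Smo-KO livers lay below all control livers, and the log2 fold change was -0.25 (SE 0.12, adjusted p = 0.393), or -0.14 without control liver 3. Calr (chr8:84841850-84846934, minus strand), which holds glycoproteins with monoglucosylated glycans until they fold, was counted at 1204, 1007, 1198 and 1011 CPM in control livers and at 888, 888, 710.4 and 1022 CPM in Smo-KO livers. Only Smo-KO liver 4 reached the control range, and the log2 fold change was -0.33 (SE 0.12, adjusted p = 0.247). The annotation places exons of 1810014B01Rik on the opposite strand over 415 exonic bases of Hsp90b1, and the use of strand in counting was not stated, so reads there could be lost or shared.

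Pdia4 (chr6:47796141-47813430, minus strand), a protein disulfide isomerase that works with BiP, was counted at 335, 273, 326 and 284 CPM in control livers and at 234, 239.9, 199.5 and 288 CPM in Smo-KO livers. Smo-KO livers 1, 2 and 3 lay below all control livers and liver 4 lay within their range (log2 fold change -0.34, SE 0.12, adjusted p = 0.241). Creld2 (chr15:88819646-88826683, plus strand), an ER stress-inducible protein with EGF-like domains and disulfide isomerase activity, was counted at 54.3, 67.1, 56.1 and 45.6 CPM in control livers and at 35.1, 45.3, 45.4 and 51.3 CPM in Smo-KO livers. Here too 3 of 4 Smo-KO livers lay below the control range, by a small margin in livers 2 and 3, and the log2 fold change was -0.33 (SE 0.13, adjusted p = 0.304).

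The 2 cochaperones of the set had similar log2 fold changes. Dnajb9 (chr12:44205559-44210326, minus strand) encodes a J-domain protein that recruits BiP to unfolded proteins and to IRE1. It was counted at 163, 129, 135 and 103 CPM in control livers and at 106, 114, 64.1 and 87.2 CPM in Smo-KO livers. Smo-KO livers 3 and 4 lay below all controls, and livers 1 and 2 lay just above control liver 4, the lowest control (log2 fold change -0.51, SE 0.17, adjusted p = 0.239). Sdf2l1 (chr16:17130138-17132383, minus strand), the partner of the J-domain protein Dnajb11 in keeping clients soluble, was counted at 78.8, 77.4, 84.5 and 60.5 CPM in control livers and at 55.4, 47.9, 41.5 and 69.6 CPM in Smo-KO livers. Control livers 1, 2 and 3 stood close together, 3 Smo-KO livers lay below all controls, and Smo-KO liver 4 lay above control liver 4 (log2 fold change -0.49, SE 0.15, adjusted p = 0.211).

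Manf (chr9:106838312-106891979, minus strand) encodes a small ER protein that binds BiP and is secreted under ER stress. It was counted at 307, 249, 283 and 229 CPM in control livers and at 197, 197, 139 and 246 CPM in Smo-KO livers. Its pattern followed that of Calr and Pdia4, with Smo-KO liver 3 lowest and Smo-KO liver 4 inside the control range (log2 fold change -0.45, SE 0.15, adjusted p = 0.236). The annotated span of Manf runs over exons of Dcaf1 on the opposite strand (146 shared exonic bases) and of 4930524O07Rik (166 bases), and its values carry the same uncertainty as those of Hsp90b1.

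Herpud1 and Xbp1 were the only members for which any Smo-KO liver lay above the control mean. Herpud1 (chr8:94386438-94395377, plus strand), a membrane protein that organizes the degradation of misfolded ER proteins, varied most between livers of 1 group. It was counted at 523, 344, 209.7 and 350.0 CPM in control livers and at 342, 366, 200.1 and 266 CPM in Smo-KO livers. Control liver 1 held the highest value of all 8 livers and control liver 3 the lowest but for Smo-KO liver 3, the groups overlapped, and the log2 fold change was -0.28 (SE 0.24, adjusted p = 0.637). Without control liver 1 it was -0.04, and without Smo-KO liver 3 it was -0.14, so the lower mean of Herpud1 rests on these livers.

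Xbp1 (chr11:5520659-5525893, plus strand) was the only member with a higher mean in Smo-KO livers. It was counted at 351, 396, 326 and 302 CPM in control livers and at 339, 444, 453 and 349 CPM in Smo-KO livers. Smo-KO livers 2 and 3 lay above all controls and livers 1 and 4 lay among them (log2 fold change 0.21, SE 0.12, adjusted p = 0.473, or 0.14 without Smo-KO liver 3). Smo-KO liver 3, the lowest of the 8 for 7 of the other genes, had the highest Xbp1 level. Counts per gene do not separate the spliced from the unspliced Xbp1 mRNA, so they give total Xbp1 RNA and no measure of IRE1 activity.

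**Figure D2:**
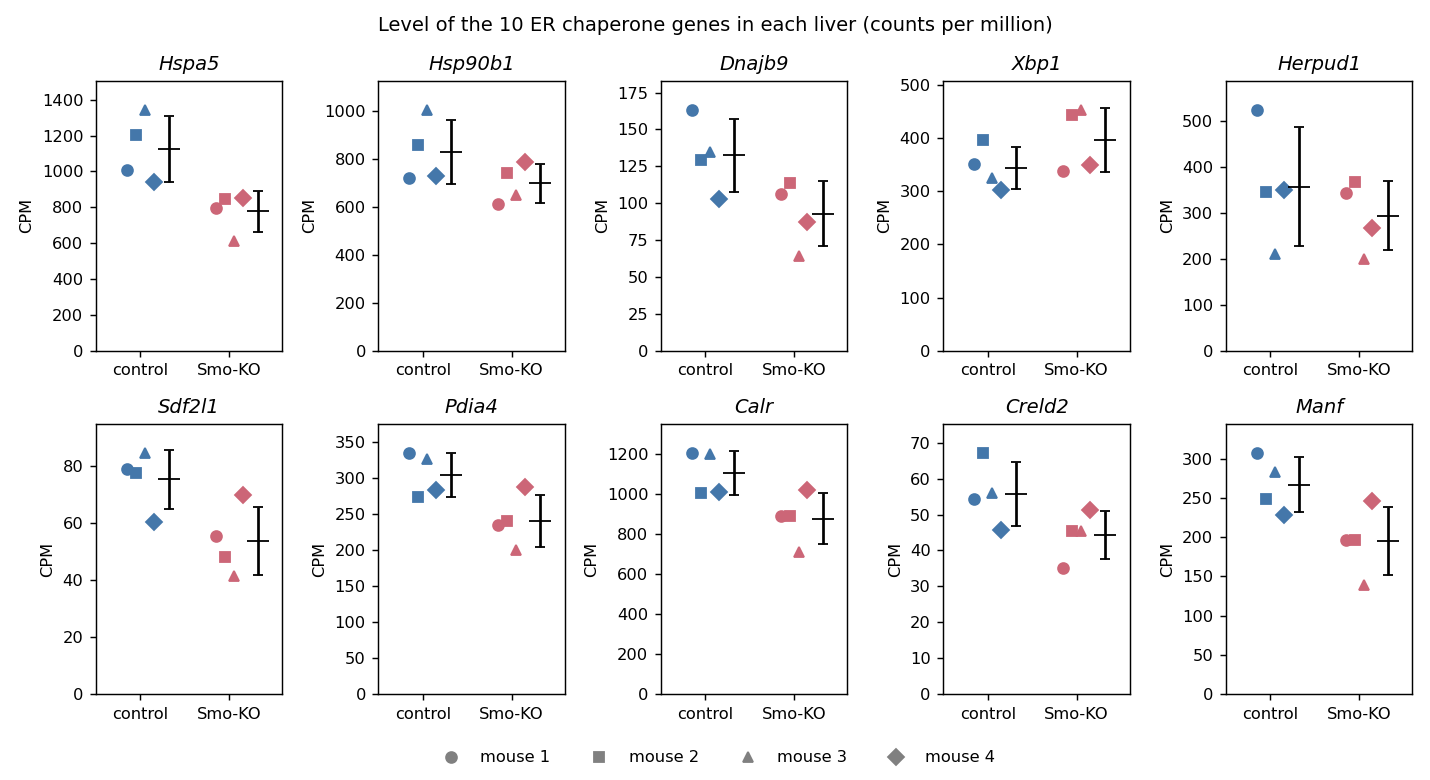
Level of each ER chaperone gene in CPM (vertical axis, from 0) in 4 control and 4 Smo-KO livers. Symbols give the mouse number within a group, which was not used to pair the groups; black bars are the mean and SD of 4 livers. The groups are apart for Hspa5 (lowest control 940.1 CPM, highest Smo-KO 852 CPM), overlap for the other 9, and the Smo-KO mean is higher for Xbp1 alone.

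The livers of 1 group differed among themselves in the level of the set. Relative to the control mean, the average over the 10 genes on the log2 scale was 0.12, 0.03, 0.04 and -0.19 in control livers 1 to 4 and -0.34, -0.23, -0.59 and -0.19 in Smo-KO livers 1 to 4. Control liver 4 and Smo-KO liver 4 therefore had nearly the same average, the first the lowest of the controls and the second the highest of the Smo-KO livers. Smo-KO liver 3 was the lowest of the 8 livers for 7 genes (Hspa5, Dnajb9, Herpud1, Sdf2l1, Pdia4, Calr and Manf), Smo-KO liver 1 for Hsp90b1 and Creld2, and control liver 4 for Xbp1. The highest value came from control liver 1 for 5 genes, from control liver 3 for 3, from control liver 2 for Creld2 and from Smo-KO liver 3 for Xbp1. Smo-KO liver 3 also had the fewest reads on genes of all livers, and the part of depth in its values was not tested. Without it the median log2 fold change of the 10 genes was -0.29, and 7 of them were again lower at an unadjusted p under 0.05. Leaving out Smo-KO liver 4 or control liver 4 raised the number of genes whose groups did not overlap from 1 to 6 (Hspa5, Sdf2l1, Pdia4, Calr, Creld2 and Manf) or to 5 (Hspa5, Dnajb9, Sdf2l1, Creld2 and Manf), where 5.61% or 6.09% of all genes tested were apart on the lower side. A comparison with 1 liver fewer separates more easily, and these were the livers in which the groups met, so the rise is partly built in.

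**Figure D3:**
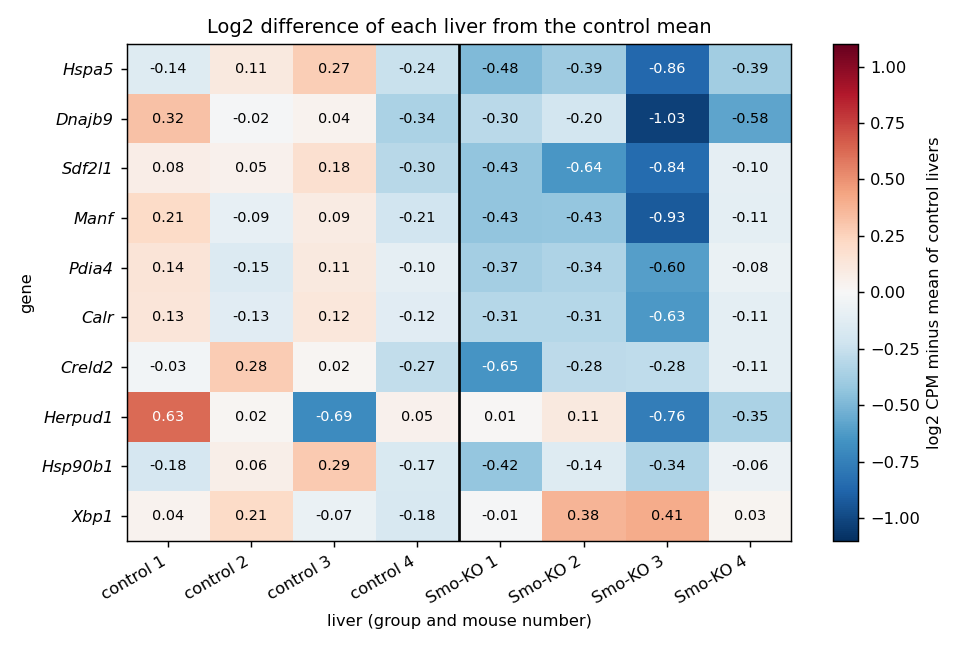
Log2 CPM of each ER chaperone gene (rows) in each liver (columns) minus the mean of the 4 control livers; blue is lower and red is higher, and genes are ordered by their Smo-KO average. Smo-KO liver 3 is the darkest blue column, with -1.03 for Dnajb9 and -0.93 for Manf, and the Xbp1 row is red in Smo-KO livers 2 and 3 (0.38 and 0.41).

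Most pairs of the genes varied in the same direction within groups. After the group mean was subtracted, Pearson's r between pairs of the 10 genes over the 8 livers had a median of 0.39, with 34 of 45 pairs above 0. The closest pairs were Pdia4 with Calr (r = 0.98), Calr with Manf (r = 0.98) and Pdia4 with Manf (r = 0.95), and Hspa5 was closest to Hsp90b1 (r = 0.79). Xbp1 stood apart again: its 9 pairs had a median r of -0.13, and without them the median of the other 36 pairs was 0.51. The lowest r, -0.55, was that of Hsp90b1 with Herpud1. All values of 1 liver come from 1 library, so these correlations are descriptions over 8 points that share the state, depth and preparation of each sample. No median over pairs of all genes is given beside them, and whether these r exceed those of other genes was not tested. Outside the set, the genes whose level followed Hspa5 most closely over the 8 livers in the same way were Magi3 (r = 0.98), Hspa13 (r = 0.96), Ces2h (r = 0.95), 2610002M06Rik (r = 0.95) and Ptk2 (r = 0.94). They were picked from many genes for the highest r, so high values are partly built in by the choice. Hspa13 is itself an HSP70 family member of the ER, and Ces2h was near 1 CPM, where few reads fix its value.

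With earlier results of these data known, lists of other proteins of ER folding were drawn up by function. Their counts stand against the shares over all genes tested given above, 7.15% lower and 6.70% higher at an unadjusted p under 0.05 and 4.34% apart on the lower side. Of 21 other ER chaperones and cochaperones, 18 had enough reads to be tested; 5 were lower and 0 higher at an unadjusted p under 0.05, and their median log2 fold change was -0.16 (-0.10 without Smo-KO liver 3). The lowest was Hyou1, the nucleotide exchange factor of BiP. Hyou1 was counted at 246, 235, 218 and 167 CPM in control livers and at 140.1, 146, 97.3 and 158 CPM in Smo-KO livers, so the groups did not overlap. Its log2 fold change, -0.67 (SE 0.15), was further from 0 than that of any of the 10 genes (adjusted p = 0.133 in edgeR's test and 0.00777 in DESeq2's). Dnajc3, a cochaperone of BiP that also restrains PERK, had groups that did not overlap too (log2 fold change -0.28, adjusted p = 0.266). Hspa13 (-0.40, adjusted p = 0.301) and the collagen chaperone Serpinh1 (-0.29, adjusted p = 0.240) were also among the 5. With each liver left out, the log2 fold change of Hspa13 ran from -0.50 to -0.26. Canx, the membrane-bound relative of Calr, had nearly equal means of 441 ± 44.7 and 424 ± 24.6 CPM (SD, n = 4 each; log2 fold change -0.05, SE 0.09, adjusted p = 0.835).

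Among 17 other disulfide isomerases and oxidases, 5 were lower and 1 (Tmx4) was higher at an unadjusted p under 0.05, with a median log2 fold change of -0.16. Pdia6, which acts on BiP clients and on the sensors, had a log2 fold change of -0.38 (SE 0.12, adjusted p = 0.217) and groups that did not overlap. Txndc5 stood at -0.33 (adjusted p = 0.308) and the oxidase Ero1lb at -0.27 (adjusted p = 0.327). P4hb, the first known isomerase of the family, averaged 2105 ± 277 CPM in controls and 1797 ± 262 CPM with Smo-KO (SD, n = 4 each; adjusted p = 0.447). Of 25 genes of ER-associated degradation, which returns misfolded proteins to the cytosol for the proteasome, 9 were lower and 0 higher (median -0.18), and in 7 the groups did not overlap. Ubxn4, which tethers the segregase VCP to the ER, had a log2 fold change of -0.40 (adjusted p = 0.133 in edgeR's test and 0.0131 in DESeq2's). The ubiquitin ligase Syvn1 stood at -0.55 (adjusted p = 0.217), and the mannosidase-like Edem1 at -0.30 (adjusted p = 0.240). Without Smo-KO liver 3, 3 of the 25 degradation genes, 2 of the 18 chaperones and 1 of the 17 isomerases and oxidases were lower at an unadjusted p under 0.05. Without control liver 3 the counts were 5, 2 and 1, and the isomerases and oxidases also fell to 2 without control liver 1 and to 3 without control liver 4 or Smo-KO liver 2. For the 10 ER chaperones the count stayed between 6 and 8.

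The sensors of the UPR came next. Ern1, which encodes IRE1, averaged 15.8 ± 5.12 CPM in controls and 13.9 ± 5.40 CPM with Smo-KO (SD, n = 4 each; log2 fold change -0.19, adjusted p = 0.794). Atf6 had a log2 fold change of -0.19 (adjusted p = 0.465), and Eif2ak3, which encodes PERK, of -0.47 (adjusted p = 0.236). The value of Atf6 ran from -0.26 to -0.11 with each liver left out. Over the 13 sensors and regulators the median was -0.19, with 5 lower and 1 higher at an unadjusted p under 0.05. The one that was higher was Creb3l3, a liver-enriched membrane-bound transcription factor of lipid metabolism related to ATF6. It was counted at 422, 392, 367 and 379.7 CPM in control livers and at 443, 534, 557 and 470.3 CPM in Smo-KO livers. All 4 Smo-KO livers lay above all control livers, as they did for 3.03% of all genes tested (log2 fold change 0.36, SE 0.10, adjusted p = 0.163 in edgeR's test and 0.0292 in DESeq2's, which called 0.609% of all genes higher). Wfs1, an ER membrane protein induced by the UPR (-0.66, adjusted p = 0.163 and, in DESeq2's test, 0.0418), and Creb3l2 (-0.66, adjusted p = 0.215) were the lowest of this list.

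In the PERK and ATF4 arm, which acts on translation and amino acid supply, the median log2 fold change of 11 genes was -0.42, with 4 lower and 0 higher at an unadjusted p under 0.05. The median was -0.23 without Smo-KO liver 3 and -0.28 without control liver 1. Atf4 was counted at 243, 189, 240.1 and 188 CPM in control livers and at 179.9, 146, 163 and 155 CPM in Smo-KO livers, with groups that did not overlap (log2 fold change -0.42, SE 0.11, adjusted p = 0.163). Ddit3, which encodes the ER stress factor CHOP, had a log2 fold change of -0.52 (SE 0.18, adjusted p = 0.247), and Chac1, a glutathione-degrading target of ATF4, of -0.68 (SE 0.27, adjusted p = 0.296). The number of lower genes in this arm ran from 1 (without control liver 1) and 2 (without Smo-KO liver 3) to 8 (without Smo-KO liver 1). Of 23 genes of the translocon, signal peptidase and oligosaccharyltransferase, which bring proteins into the ER and process them there, 8 were lower and 0 higher (median -0.13). Ssr2 (-0.36, adjusted p = 0.235), Spcs3 (-0.31, adjusted p = 0.237) and Sec61a1 (-0.36, adjusted p = 0.287) had the smallest p. The groups overlapped for all 23 genes, and the 8 became 2 without Smo-KO liver 3 or control liver 1 or 3, 3 without control liver 4 and 5 without Smo-KO liver 1 or 2; the median was -0.08 without Smo-KO liver 3 or control liver 3.

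Chaperones outside the ER were listed for comparison. Of 17 cytosolic heat shock chaperones 1 was lower and 0 higher, with a median log2 fold change of -0.01, which ran from -0.09 (without Smo-KO liver 3) to 0.11 (without Smo-KO liver 1). Without Smo-KO liver 3 it was thus close to the -0.10 of the other ER chaperones, while the 10 ER chaperones stood at -0.29. The one was Bag3, a nucleotide exchange factor of HSP70 (-0.33, adjusted p = 0.266), followed by Hspa4 (-0.18, adjusted p = 0.430) and Hspa1a (-0.54, adjusted p = 0.522, from few reads). Leaving out each liver in turn gave -0.24 to -0.11 for Hspa4 and -0.69 to -0.23 for Hspa1a. Of 10 mitochondrial chaperones and proteases 2 were lower, Clpx (-0.48, adjusted p = 0.235) and Dnaja3 (-0.22, adjusted p = 0.296), and 1 was higher, the cochaperonin gene Hspe1 (0.28, adjusted p = 0.243), with a median of -0.06 (-0.09 to -0.03 with each liver left out). With each liver left out, the lower genes numbered 0 to 2 in the cytosolic list and 1 to 3 in the mitochondrial one. Differences between lists were not tested.

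**Figure D4:**
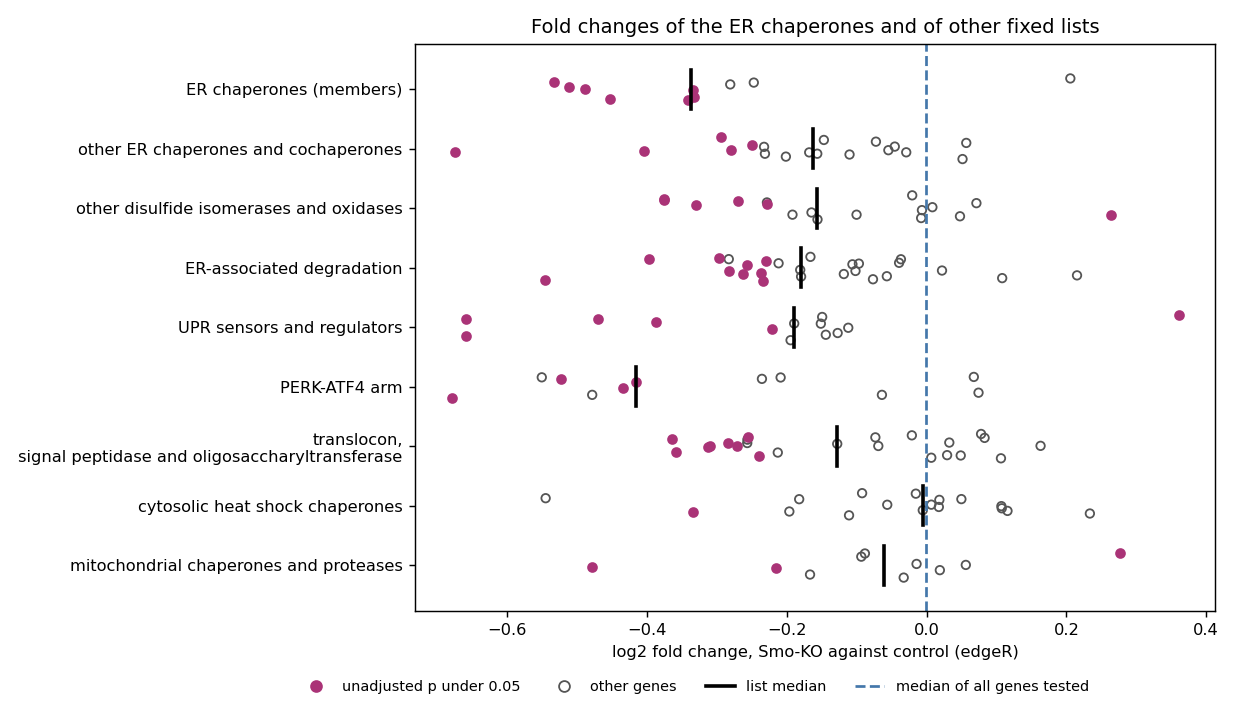
Log2 fold change of each tested gene (horizontal axis, Smo-KO against control, edgeR) in the 10 ER chaperones and in 8 other lists drawn up by function. The set and the lists were chosen with earlier results of these data known. Filled points have an unadjusted p under 0.05, black bars are list medians and the dashed line is the median of all genes tested. The median is -0.34 for the 10 ER chaperones, -0.16 for other ER chaperones and -0.01 for cytosolic heat shock chaperones; without Smo-KO liver 3 these are -0.29, -0.10 and -0.09.

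The promoter motifs were also read across the other genes. Outside the 10 genes, 33 had ERSE in their window; 27 of these were among the counted symbols, 1 of them under an older symbol, and 16 had enough reads to be tested. Of the 16, 12 had a lower and 4 a higher mean in Smo-KO livers, the median log2 fold change was -0.27, and 6 were lower and 0 higher at an unadjusted p under 0.05. The 6 were Acnat2, Syvn1, Pdia6, Dnajc3, Spats2l and Ero1lb, and they were read out after their values were seen. Among them, Syvn1, Pdia6, Dnajc3 and Ero1lb act in the ER and are counted in the lists above. Canx (-0.05) and Derl3 (-0.04) also have ERSE and are in those lists, and they were not among the 6. With ERSE-II, 7 other genes were tested, and their median was -0.08, with 2 lower (Lgalsl and Dnajb11) and 1 higher (Rbm39) at an unadjusted p under 0.05. The short cores occur in more genes: 327 tested genes with the UPR element core had a median of -0.03, with 36 lower and 17 higher, and 83 with the CARE core had a median of 0.02, with 9 lower and 3 higher. All these counts stand beside 7.15% lower and 6.70% higher over all genes tested, and no motif was tested for a difference from other genes. Among the 10 genes, the log2 fold changes of those with ERSE ran from -0.53 (Hspa5) to -0.25 (Hsp90b1), and those of the 4 genes whose windows held none of the motifs were -0.51 (Dnajb9), -0.49 (Sdf2l1), -0.34 (Pdia4) and 0.21 (Xbp1).

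Plasma cells have a very large ER and express ER chaperones strongly, so markers of this and other liver cell types were read beside the set. Of 8 plasma cell markers 6 were found and 4 had enough reads to be tested, and 2 of the 4 were lower at an unadjusted p under 0.05. Their summed level was 301 ± 24.8 CPM in controls and 241 ± 29.1 CPM with Smo-KO (SD, n = 4 each) without overlap, and most of it came from Sdc1, which hepatocytes also express. Jchain, which marks antibody-secreting cells, was counted with 29, 41, 248 and 143 reads in control livers and with 33, 15, 25 and 24 reads in Smo-KO livers, and so was high in control livers 3 and 4 only. Mzb1, not tested for few reads, had 7, 5, 41 and 20 control reads and 5, 6, 4 and 5 Smo-KO reads. Irf4 had 15, 14, 23 and 30 control reads and 25, 10, 7 and 14 Smo-KO reads (log2 fold change -0.47, adjusted p = 0.580). Pou2af1 had 11, 8, 19 and 11 control reads and 16, 11, 6 and 14 Smo-KO reads (0.02, adjusted p = 0.990). In control livers 1 to 4 the log2 average of the ER chaperones was 0.12, 0.03, 0.04 and -0.19. Control liver 3, with the most Jchain reads, had the highest level of all 8 livers for Hspa5, Hsp90b1 and Sdf2l1. Control liver 1, with 29 Jchain reads, had the highest level for 5 genes (Dnajb9, Herpud1, Pdia4, Calr and Manf). Control liver 4, with 143 Jchain reads, had the lowest average of the controls. All 4 tested T and NK cell markers were lower at an unadjusted p under 0.05, among them Nkg7 (log2 fold change -0.94, adjusted p = 0.140) and Cd3e (-0.98, adjusted p = 0.175), and their list summed to 36.6 ± 6.00 CPM in controls and 20.6 ± 5.92 CPM with Smo-KO, also without overlap. Summed levels overlapped between groups for macrophages (1318 ± 230 and 1292 ± 250 CPM), B cells (18.6 ± 1.02 and 18.9 ± 2.61 CPM), neutrophils (10.7 ± 3.69 and 10.5 ± 1.30 CPM, with Ly6g at 0 in all livers), stellate cells (963 ± 61.3 and 874 ± 134 CPM), sinusoidal endothelial cells (172 ± 17.2 and 144 ± 47.2 CPM) and cholangiocytes (148 ± 41.8 and 177 ± 45.9 CPM). Single markers in lists whose sums overlapped still differed at an unadjusted p under 0.05. Trem2, a marker of lipid-associated macrophages, was counted with 263, 345, 330 and 361 reads in control livers and with 426, 501, 545 and 573 reads in Smo-KO livers, without overlap (log2 fold change 0.75, adjusted p = 0.0957). The hepatocyte gene Cps1 (-0.33, adjusted p = 0.218), the collagen gene Col1a1 of stellate cells (-0.36, adjusted p = 0.248) and the endothelial gene Pecam1 (-0.50, adjusted p = 0.292) were on the lower side. Of the other hepatocyte markers, Apoa1 (0.18), Cyp2e1 (0.24) and Asgr1 (0.17) were higher, and Alb (-0.11), Ttr (-0.06), Hnf4a (-0.13) and Tat (-0.62) were lower. Of the other stellate markers, Des (0.09) and Dcn (0.07) were higher, and Lrat (-0.03), Col3a1 (-0.23) and Pdgfrb (-0.14) were lower. None of these other markers had an unadjusted p under 0.05. The part of these cells in the levels of the ER chaperones was not tested.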

How the data were processed

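Libraries were made from Trizol-extracted total RNA of whole liver with the NEBNext Ultra kit and sequenced on a NovaSeq. Per the submitters' processing notes, fastp, STAR 2.7.5, featureCounts 2.0.1 and GRCm38 were used; the annotation, strand setting and treatment of multimapping reads are not given in the sources used here. For each liver the authors deposited raw counts for 25239 gene symbols without normalization, in lists that end with summary lines as htseq-count writes them. These lines name no gene and entered neither library sizes nor tests: reads on no feature were 8.33% ± 0.743 of the total in controls and 9.23% ± 0.330 with Smo-KO (SD of 4 livers; two-sided exact permutation p = 0.114), and ambiguous reads 2.55% ± 0.0719 and 2.51% ± 0.0456.

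Counts were analysed with edgeR 4.0.16 under R 4.3.3 (TMM, filterByExpr, quasi-likelihood test with the group as sole term, all 8 livers, Benjamini-Hochberg adjustment over 12977 genes). Single values were compared with exact permutation tests over the 70 assignments of livers, two-sided. Log2 CPM used a prior count of 2. At these depths 3 reads correspond to 0.296 to 0.365 CPM, and depth describes counting error only. No pair of livers of 1 group was a copy of another (chi-square per degree of freedom 8.17 to 18.5). The p-values of edgeR and DESeq2 set a group difference against the spread between these livers, which both estimate partly from all genes tested. The alternatives were DESeq2 1.42.0, other size factors, other filters, the replicate number as a block and each liver left out in turn. Gene positions are from GENCODE M21 (GRCm38), promoter windows and older symbols from RefSeq (GRCm38.p6), and figures were drawn with matplotlib 3.10.9. The procedure was tested on simulated data.

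The members and gene lists were chosen with earlier results of these data known. The genes named were the 10 members, Smo, 10 fixed pathway genes, the 3 genes of each other list with the smallest unadjusted p, and the 5 genes most correlated with Hspa5; Jchain and other marker genes, Tmx4 and the other genes with ERSE or ERSE-II were named after values were seen.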

Additional observations from a re-analysis of the deposited data

Results flagged for a closer look

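Over 50 measures in 2 groups of 4 livers, 4 of the 100 sets of values had 1 liver far from the other 3 by Dixon's criterion at the 95% level, where chance gives about 5. Ddit3 was at 55.4 CPM in control liver 1, against 39.2 to 41.3 CPM in the other control livers. Wfs1 was at 36.6 CPM in control liver 1, against 23.8 to 25.2 CPM in the others. Ptk2, one of the genes most like Hspa5, was at 22.3 CPM in Smo-KO liver 3, against 28.96 to 29.97 CPM in the other Smo-KO livers. The same liver had 8203299 reads on genes, against 9367795 to 9543675 in the others. None of the 10 ER chaperone genes had such a liver in either group, and whether these 4 values share a cause was not tested.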

How the results depend on the processing

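No member changed direction under any alternative, and the median log2 fold change of the 10 genes, -0.34, ran from -0.43 to -0.29 with each liver left out. The count of members lower at an unadjusted p under 0.05, 7, ran from 6 to 8. Genes called over all genes, 0 in edgeR's test, were 163 with DESeq2, 61 without a filter, 8 with the replicate block and from 0 to 78 with each liver left out (78 without Smo-KO liver 1, 5 without control liver 1, 4 without Smo-KO liver 3). Members called were 1 (Hspa5) with DESeq2 and 0 elsewhere. Members whose groups did not overlap were 2 (Hspa5 and Calr) with library totals alone, where 4.21% of all genes tested were apart on the lower side, and from 1 to 6 with each liver left out, where 5.28% to 7.91% were. Smo had an adjusted p of 0.00613 with DESeq2 (log2 fold change -0.87), of 0.0385 without a filter (-0.88) and of 0.0265 without Smo-KO liver 1, and its log2 fold change ran from -0.997 to -0.811 with each liver left out. Ddit3 had an adjusted p of 0.0443 without Smo-KO liver 1, and Hyou1 of 0.0434 without a filter. With each liver left out, the log2 fold change changed sign in 4 other named genes: Magi3 (-0.0046 to 0.0896), Canx (-0.11 to 0.0119), Ces2h (-0.0976 to 0.557) and Ern1 (-0.449 to 0.0148). The causes of these changes were not tested. The labels state no shared litter, batch or day for equal replicate numbers, and deviations of same-numbered livers correlated at 0.104, 0.187, 0.0611 and 0.113, not all above 0.1, so the numbers were not used as pairs. All 4 values were positive and 5 of 8 livers correlated best with their own number, a hint of pairing from the data that is not settled here. With the block, 7 genes of the PERK and ATF4 arm were lower at an unadjusted p under 0.05 in place of 4, and no member's call changed. No scaling moved the median of all genes by more than 0.1. Depth limits genes near 1 CPM, such as Ces2h and Hspa1a; the 10 members had at least 341 reads in every liver, and the effect of depth on their values was not tested.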
